A study of Mus musculus with 6 samples.

Results

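Microglia of the subventricular zone (SVZ), the stem cell niche along the lateral ventricle, were compared between 7 days and 1 day after photothrombotic ischemia of the cortex (PT). All cells that the authors' table classes as microglia were taken from the 2 libraries of each time point, which gave 261 of the 416 microglia and of the 658 cells of all classes. PT D1 libraries 1 and 2 held 71 and 76 microglia, and PT D7 libraries 1 and 2 held 54 and 60. The 155 microglia of the 2 uninjured libraries served as the reference level. All mice were described as Nestin-CreERT2:R26-yfp, in which tamoxifen switches on a yellow fluorescent protein in Nestin-expressing stem cells and not in microglia. By the study's methods the mice were of both sexes and 8–12 weeks old at tamoxifen induction, and PT followed 5–14 days after the last injection. PT injures the cortex with Rose Bengal and light, and the SVZ of the same hemisphere was taken, so the cells came from outside the lesion. Uninjured mice had no PT, and a sham operation is not described in the sources used here. Microglia were sorted as CD11b+ CD45low cells with stains for Ly6C and Ly6G, 1 cell per well, and sequenced by mCEL-Seq2, which counts molecules by unique molecular identifiers (UMIs). The mice and the plate behind each library are not given, so p-values measure the spread between libraries, and a plate effect cannot be told apart from the condition.

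Microglia are the resident macrophages of the brain. In the undisturbed tissue they express a homeostatic program that includes purine receptors such as P2ry12 and the fractalkine receptor Cx3cr1, which TGF-beta signalling and the transcription factor Sall1 help to maintain. After injury this program is known to be turned down while cytokines, innate receptors and stress genes are turned up. A separate state, called disease-associated, is marked by lipid handling genes such as Apoe and Lpl and by Clec7a and Axl, and is known from degenerating and regenerating tissue.

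The summed microglia of the PT libraries held 294984 to 447806 UMIs, with a median of 4155 to 5331 UMIs per cell, against 364288 and 468186 UMIs in the uninjured libraries. A single repeat-like transcript, Gm10800, took 27.1% and 27.6% of all microglial UMIs in uninjured libraries, 28.1% and 31.3% in PT D1 libraries, and 30.5% and 37.2% in PT D7 libraries. All 8 microglial markers were present in every library, from 19 UMIs for Aif1 in PT D1 library 2 upwards, so the class fitted its name. PT D1 library 2 stood apart, since 35 of its 76 microglia belonged to the authors' cluster 3 (named development-associated), against 1 of 71 cells in PT D1 library 1. It also held most of the UMIs of Cbr2, a marker of border-associated macrophages, with 541 against 53. The further markers of that type named here did not go with Cbr2. Mrc1, Cd163, Pf4 and Lyve1 had 3, 0, 2 and 1 UMIs in PT D1 library 2, against 5, 0, 2 and 0 in library 1. Values without this library are given beside some results, and other list counts not given here also moved without it. The 10 choroid plexus markers together took 10710 and 4733 CPM (UMIs scaled to a common library total) in uninjured libraries, 603 and 478 in the PT D1 libraries, then 630.5 and 202.5 in those of PT D7. The 21 markers of neural stem and precursor cells (NSPC) took 568 and 1217 CPM in uninjured libraries. They ranged from 295 to 663 CPM at PT D1 and from 356 to 989 at PT D7. The 8 oligodendrocyte markers ranged from 511.5 to 980 and from 393 to 1049, in the same order. The 9 markers of border-associated macrophages ranged from 389 to 1349 CPM at PT D1 and from 210.2 to 216 at PT D7, and the 10 monocyte or neutrophil markers from 5.56 to 82.6 and from 6.75 to 30.5, with Ly6c2 at 0 in every library. In PT D1 library 2 Cbr2 alone took 1210 of the 1349 CPM, and Plac8 alone 67.0 of the 82.6 CPM. Of the 9 border-associated markers 3 were tested for a change from PT D1 to PT D7. Of these 1, not Cbr2, fell (33.3%, against 2.1% of all genes). A fit without cells holding 3 or more NSPC marker genes was run, and its results are given below. It kept 45 and 18 microglia of the uninjured libraries, 64 and 39 of PT D1 and 43 and 32 of PT D7. Beyond this fit the part of other cells in the results was not tested.

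Of 4846 genes tested, 184 differed between PT D7 and PT D1, which is 3.8% of the genes (quasi-likelihood test of edgeR, adjusted p below 0.05). The 102 genes that fell (2.1%) included inflammatory regulators, stress genes and glucocorticoid-responsive genes, and the 82 that rose (1.69%) included homeostatic and disease-associated genes. The UMIs were summed per library, and fewer cells of a state and less RNA per cell cannot be told apart in such sums. Libraries of the same number deviated together, and with the library number as a block the count was 462 genes, 191 higher and 271 lower, among them all 184. Without PT D7 library 1 the count was 46 and without PT D7 library 2 it was 77, whereas without PT D1 library 1 it was 418 and without uninjured library 1 or 2 it was 104 or 112. Leaving out PT D1 library 2 gave 186 genes, 133 of them among the 184. Without TMM scaling the median over all genes shifted to -0.11 on the log2 scale and 34.7% of the calls were higher, against 44.6% with it. Without cells holding 3 or more NSPC marker genes the count was 147, of which 126 were among the 184. Direction was the same for 181 of the 184 genes in every alternative in which they were tested, and 25 passed the threshold in all of them.

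To see which genes came back and which went on, each gene was placed by the ranges of its library levels, as CPM of the genes tested after TMM scaling. Of the 184 genes, 80 were back in range, meaning that the PT D7 range overlapped the uninjured range and the PT D1 range did not. A further 24 had come part way, lying between the PT D1 and the uninjured libraries. In 72 genes both PT D7 libraries lay past the uninjured libraries, on the other side from PT D1. In 7 genes only PT D7 stood apart, and in 1 gene, Apoe, PT D7 lay further from uninjured than PT D1 on the same side. Over all 4846 genes these classes held 17.5%, 6.77%, 5.8%, 8.17% and 2.48%, and the PT D1 and PT D7 libraries did not overlap in 46.8%. The classes describe ranges of 2 libraries, and the comparison with PT D1 had chosen the genes. The median distance of the 72 genes past uninjured was 0.71 on the log2 scale. Of these, Ddit4 and Lpl differed from uninjured in the edgeR test, 33 had an unadjusted p under 0.05, and 11 had a 95% interval that stayed within 1 log2 unit of uninjured. For the 80 genes back in range the median distance was 0.15, with a median half-width of the interval of 0.78. Only 41 of them had an interval within 1 log2 unit. For the others, overlapping ranges do not show that the uninjured level was regained.

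The comparison of PT D1 with uninjured leaves out the PT D7 libraries, though they entered the filter, scaling and spread of the fit. It called 276 genes or 5.7%, of which 132 (2.72%) were higher and 144 (2.97%) lower. Without TMM scaling these counts were 89 and 175. By PT D7 a median of 84.7% of the log2 difference had been undone, with quartiles of 66.2% and 103%. For genes higher at PT D1 the median was 89.8%, and for genes lower at PT D1 it was 81.1%. More than all of it was undone in 80 genes, and 7 genes, among them Ccl3, Ccl4, Ttr, Ldha and Ctsb, were further from uninjured than at PT D1. The return itself passed the test in 128 of the 276 genes (46.4%), 71 of them falling and 57 rising. The comparison of PT D7 with PT D1 shares the PT D1 libraries with the choice of these genes, so a gene that was extreme in them by error also appears to return.

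**Figure D1:**
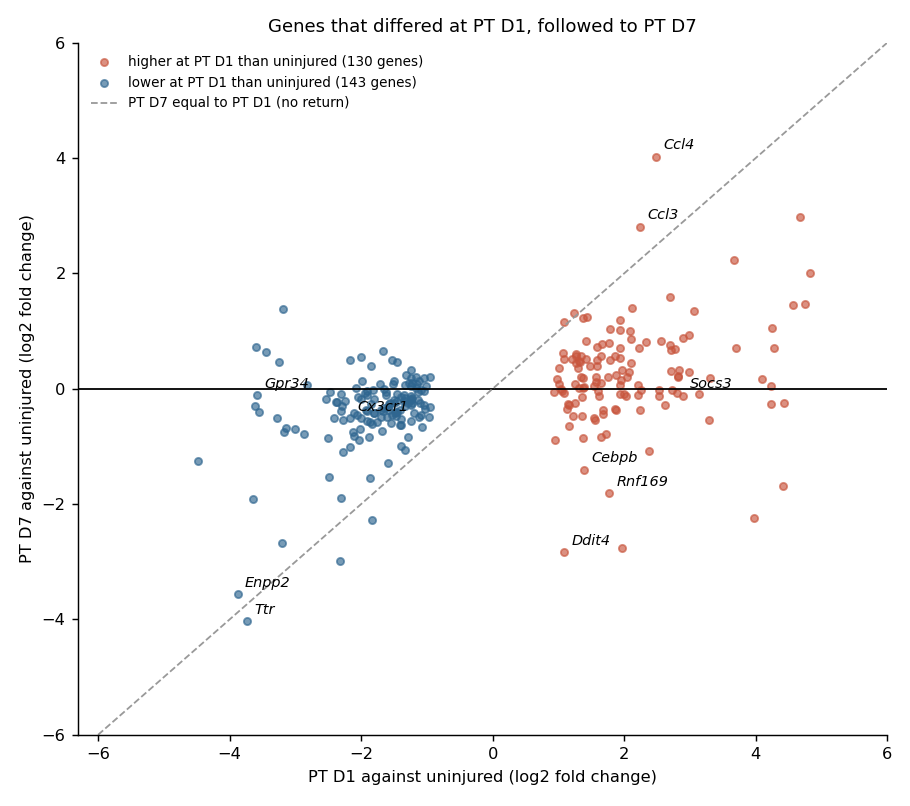
Each point is a gene called at PT D1 against uninjured, with its log2 fold change at PT D1 on the x axis and at PT D7 on the y axis, for the 273 genes that had a UMI in every condition. Most points lie near the horizontal line of the uninjured level. Few lie near the dashed line of no return, among them Ccl3, Ttr and Enpp2. Ccl4 lies above the dashed line, and Ddit4 lies on the other side of the uninjured level.

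The homeostatic list moved back toward the uninjured level. Of 22 homeostatic genes tested, 11 rose from PT D1 to PT D7 and none fell (50.0%, against 1.69% of all genes that rose), all 22 changes were positive, and the median change of the list was 1.07 on the log2 scale against -0.01 over all genes. Its median log2 distance from uninjured was -1.28 at PT D1 but -0.18 by PT D7. The study named Cx3cr1, P2ry12 and Gpr34 for its cluster 0 in these same cells. Its immunolabelling of P2ry12 protein ran the other way. Labelling was low or missing in SVZ microglia of uninjured mice. It rose strongly in some microglia at PT D1 and was back at the homeostatic level at PT D7. P2ry12 RNA, given below, was instead lowest at PT D1, and this difference was not tested. Like the other lists, the homeostatic list was chosen with earlier results known, so its direction is no independent evidence. Gpr34, a receptor for lysophosphatidylserine (GRCm39 chrX:13489625-13507116), measured 802 and 679 CPM in uninjured libraries, 51.6 and 70.4 in the PT D1 libraries, then 727 and 649 in those of PT D7. Its PT D7 libraries overlapped the uninjured libraries, and its rise was 11.1-fold (log2 3.48 ± 0.29 SE, edgeR adjusted p = 0.000365), the smallest p of the comparison. Slc2a5, a fructose transporter, measured 184 and 174 CPM uninjured, 15.2 and 14.6 in the PT D1 libraries, then 163 and 107.5 in those of PT D7, an 8.87-fold rise that left it part way. Olfml3, a secreted glycoprotein, measured 915 and 928 CPM uninjured, 264 and 199 in the PT D1 libraries, then 990 and 1038 in those of PT D7. It thus lay just past the uninjured libraries, with a 95% interval for PT D7 against uninjured from -0.40 to 0.67 on the log2 scale.

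The best known markers of resting microglia stayed short of the uninjured libraries. P2ry12 (chr3:59123682-59170429) measured 1773 and 1827 CPM uninjured, 440.5 and 238 in the PT D1 libraries, then 1362 and 1157 in those of PT D7. Cx3cr1 (chr9:119877749-119898945) measured 2203 and 2128 CPM uninjured, 562 and 405.5 in the PT D1 libraries, then 1558 and 1491 in those of PT D7. Tmem119 measured 969 and 1019 CPM uninjured, 264 and 211 in the PT D1 libraries, then 894 and 552.5 in those of PT D7. In these 3 genes both PT D7 libraries lay above PT D1 and below uninjured, and 78.6%, 76.6% and 77.7% of the PT D1 difference was undone. The rises were 1.90 ± 0.31, 1.66 ± 0.26 and 1.60 ± 0.29 on the log2 scale (SE, edgeR adjusted p = 0.00655, 0.00551 and 0.0119). The remaining differences from uninjured did not pass the test, and for Cx3cr1 the 95% interval ran from -1.06 to 0.05. Sall1, a transcription factor that maintains microglial identity, was back in range with 255 and 219 CPM at PT D7 against 252 and 239 uninjured and 115 and 46.1 at PT D1. Its edgeR adjusted p of 0.0397 became 0.0876 without PT D1 library 2 and 0.195 without PT D7 library 1. Crybb1, P2ry13, Selplg and Fcrls also rose, and Csf1r, the receptor for a survival factor of microglia, had a log2 change of 0.43 that did not pass the test (edgeR adjusted p = 0.421). The count for the list was 15 genes with the block, 5 without PT D7 library 1 and 8 without PT D7 library 2 or without PT D1 library 2. Without the cells of cluster 4 (named disease-associated by the authors) again 11 genes rose, and the median distance from uninjured at PT D7 was 0.03.

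**Figure D2:**
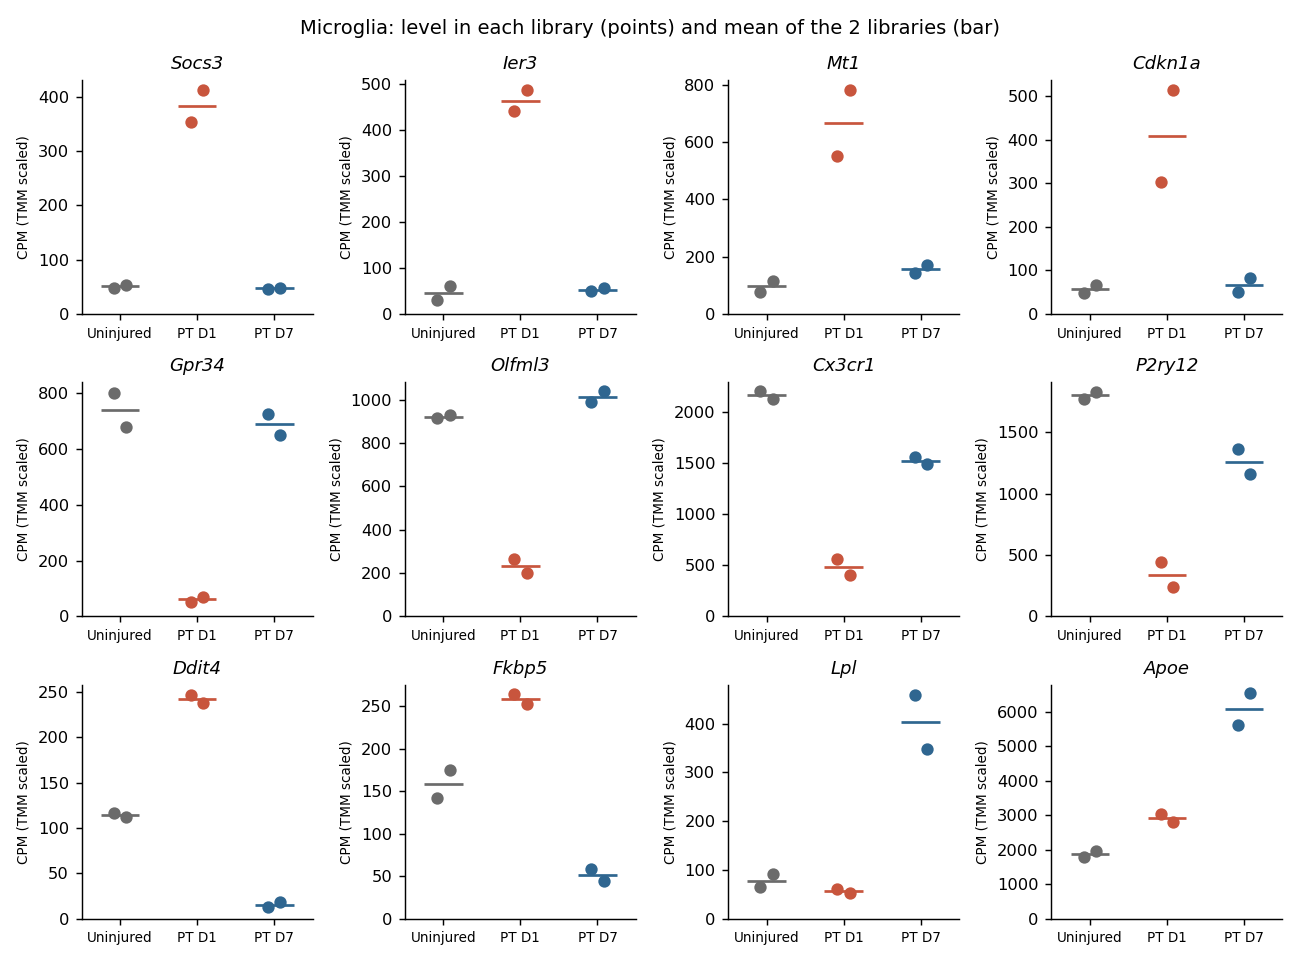
Points are the levels of 12 genes in each microglial library in TMM-scaled CPM on linear axes starting at 0, and bars are the means of the 2 libraries of a condition. In the upper row the PT D7 libraries came down to or near the uninjured level, in the middle row they came up to or near it, and in the lower row Ddit4 and Fkbp5 lie below and Lpl and Apoe above the uninjured libraries.

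Most of the program that was high at PT D1 fell almost to the uninjured level. A list of 15 genes of day 1 activation had a median log2 distance from uninjured of 2.77 at PT D1 but 0.31 by PT D7. From PT D1 to PT D7, 10 of them (66.7%) fell, against 2.1% of all genes, and none rose, and without PT D7 library 1 the count was 7. This list was drawn up with the PT D1 results known, so its direction is no independent evidence. Cd300lf, an inhibitory receptor of myeloid cells, measured 14.2 and 12.4 CPM uninjured, 289 and 221 in the PT D1 libraries, then 12.5 and 14.8 in those of PT D7. It fell 18.1-fold (log2 -4.17 ± 0.39 SE, edgeR adjusted p = 0.000432), and the PT D7 libraries overlapped the uninjured ones. Il1r2, a decoy receptor for interleukin-1, had 117 UMIs at PT D1 but 1 by PT D7, a ratio of 80.4 with a counting interval from 14.1 to 3200. Id2, an inhibitor of DNA-binding factors, measured 85.0 and 122 CPM uninjured, 905 and 573 in the PT D1 libraries, then 125 and 119 in those of PT D7. Srgn and Msr1, of the same list, were likewise back in range. The 5 members that did not pass the test were Spp1, Ccl2, Cd14, Fth1 and Ftl1, of which Spp1 and Ccl2 gave positive log2 changes of 2.10 and 1.38. Spp1, also in the disease-associated list, lay furthest above uninjured at PT D7, at 6.03 on the log2 scale, which rests on few uninjured UMIs. At PT D7 113 of its UMIs lay in 6 of 16 cluster 4 cells of library 1, and 9 in 3 of 13 of library 2.

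The list of the IL-6 family and STAT3 held 12 tested genes, 4 of which (33.3%) fell, against 2.1% of all genes, and none rose, and its median moved from 1.11 above uninjured to -0.15. Socs3, the feedback inhibitor of STAT3 signalling, measured 48.1 and 54.0 CPM uninjured, 352 and 413 in the PT D1 libraries, then 45.9 and 48.2 in those of PT D7. It fell 8.08-fold (log2 -3.01 ± 0.29 SE, edgeR adjusted p = 0.000499) and passed the test in all 20 alternatives. Stat3 itself measured 310 and 299 CPM at PT D1 but 100.2 and 77.9 by PT D7, against 48.1 and 93.4 uninjured. Il4ra and Cebpb also fell. The count for the list was 2 without either PT D7 library and 7 with the block. The promoter of Socs3 is shown because the gene is a known target of STAT3, with matches to the STAT motif TTCNNNGAA in capitals, searched on both strands.

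Socs3, chr11:117860163-117860442, minus strand: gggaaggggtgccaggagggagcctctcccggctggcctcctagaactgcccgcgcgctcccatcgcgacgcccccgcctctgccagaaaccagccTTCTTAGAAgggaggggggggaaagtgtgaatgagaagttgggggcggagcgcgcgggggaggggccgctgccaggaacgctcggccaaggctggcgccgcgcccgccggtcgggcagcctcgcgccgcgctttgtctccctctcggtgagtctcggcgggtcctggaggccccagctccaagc

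The sequence is from RefSeq and was located in GRCm39 by an exact match, and it runs 5′ to 3′ on the strand of the gene from 250 bases before to 30 after the start. It held 1 match, from -154 to -146, and 8.30% of the 32851 promoter windows of 300 bases in the table held at least 1. Of the 184 genes 150 had a window, and 10 of the 116 windows of genes that fell and 1 of the 87 of genes that rose held the motif. A match is a description of letters and does not show a site in use.

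Chemokines and cytokines divided into genes that returned and genes that stayed high. Of 15 tested, 4 fell and 1 rose, against 2.1% and 1.69% of all genes. Without PT D7 library 1 there was 1 call in each direction, without PT D7 library 2 only 1 fall, and without cluster 4 cells 3 falls. Cxcl2, which attracts neutrophils, measured 17.0 and 8.30 CPM uninjured, 264 and 165 in the PT D1 libraries, then 12.5 and 14.8 in those of PT D7, a 15.2-fold fall (log2 -3.92 ± 0.46 SE, edgeR adjusted p = 0.00125). Cxcl10, an interferon-inducible attractant of T cells, had 34 UMIs at PT D1 but 0 by PT D7, so it was at least 7.78-fold lower, taking 3 UMIs over the PT D7 libraries as the limit of a count of 0. Its adjusted p was 0.0395 in edgeR and ranged up to 0.197 over the alternatives. Tnf measured 11.3 and 33.2 CPM uninjured, 109 and 226 in the PT D1 libraries, then 33.4 and 26.0 in those of PT D7. Ccl12, which attracts monocytes, measured 407 and 141 CPM at PT D1 but 54.3 and 66.7 by PT D7, with 53.8 and 62.3 uninjured. All 4 were back in range. Ccl3 and Ccl4 are chemokines that attract macrophages and T cells. Ccl3 (chr11:83538670-83540191) measured 51.0 and 56.0 CPM uninjured, 261 and 248 in the PT D1 libraries, then 455 and 304 in those of PT D7. Ccl4 (chr11:83553383-83555509) measured 25.5 and 22.8 CPM uninjured, 69.9 and 199 in the PT D1 libraries, then 505 and 289 in those of PT D7. No PT D7 library overlapped the PT D1 libraries in either gene, but the change since PT D1 did not pass the test (log2 0.57 ± 0.27 and 1.54 ± 0.42 SE, edgeR adjusted p = 0.277 and 0.0705). Without PT D1 library 2, whose Ccl4 level was the higher, Ccl4 passed it (edgeR adjusted p = 9.12e-05), as it did with the block (0.00477, against 0.176 for Ccl3). Without cluster 4 cells the log2 changes turned to -1.27 for Ccl3 and -1.42 for Ccl4 (edgeR adjusted p = 0.0558 and 0.19). Against uninjured at PT D7 both genes passed, at 7.02-fold and 16.3-fold (edgeR adjusted p = 0.00519 and 0.00869).

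Among 18 tested genes of Toll-like receptors and NF-kB, which senses microbial and damage signals and drives cytokine genes, 4 fell and 2 rose, against 2.1% and 1.69% of all genes. Tlr7, a receptor for single-stranded RNA, measured 142 and 133 CPM uninjured, 477 and 384 in the PT D1 libraries, then 66.8 and 85.3 in those of PT D7, below both uninjured libraries. Nfkbia, the inhibitor that NF-kB induces against itself, measured 360 and 355 CPM uninjured, 878 and 726 in the PT D1 libraries, then 196 and 260 in those of PT D7. Tlr2 was part way and Tlr13 past uninjured on the lower side. Ly86 and Cd180, which form a receptor complex related to that of Tlr4, rose and lay past uninjured on the higher side, with 2046 and 1821 CPM of Ly86 at PT D7 against 1521 and 1227 uninjured and 787 and 600 at PT D1. None of these genes differed between PT D7 and uninjured in the edgeR test. Without cluster 4 cells 3 genes of the list fell and none rose, and without PT D7 library 1 only 1 fell. With the block 7 fell and 3 rose. The promoters of Cxcl10 and Cxcl2 are shown, as known NF-kB targets that were back in range, with matches to the NF-kB consensus in capitals.

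Cxcl10, chr5:92496719-92496998, minus strand: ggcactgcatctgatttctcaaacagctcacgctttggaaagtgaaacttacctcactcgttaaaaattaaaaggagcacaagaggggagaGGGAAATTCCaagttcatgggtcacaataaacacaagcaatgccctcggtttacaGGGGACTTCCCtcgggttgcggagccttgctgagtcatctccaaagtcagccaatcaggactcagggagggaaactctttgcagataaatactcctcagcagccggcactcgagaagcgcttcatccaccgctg

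Cxcl2, chr5:91051508-91051787, plus strand: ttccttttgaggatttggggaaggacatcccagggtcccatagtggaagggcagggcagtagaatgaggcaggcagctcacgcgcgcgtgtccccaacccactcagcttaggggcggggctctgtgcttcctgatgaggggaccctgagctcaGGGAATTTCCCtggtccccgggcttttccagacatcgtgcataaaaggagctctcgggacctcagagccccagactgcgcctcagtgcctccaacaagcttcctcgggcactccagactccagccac

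Cxcl10 held 3 matches, of which 2 overlap, and Cxcl2 held 2 that overlap, each counted on both strands. At least 1 match was present in 8.46% of all 32851 windows, in 11.3% of the windows of genes tested, in 18.1% of those of genes that fell (21 of 116) and in 6.90% of those of genes that rose. Genes can have several windows, and 19 of 85 genes that fell and 6 of 65 that rose held a match.

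The metallothioneins, small proteins that bind zinc and copper, both fell. Mt1 (chr8:94905710-94906955) measured 76.5 and 116 CPM uninjured, 550 and 782 in the PT D1 libraries, then 142 and 171 in those of PT D7. It fell 4.25-fold (log2 -2.09 ± 0.30 SE, edgeR adjusted p = 0.00323), and both PT D7 libraries remained above the uninjured ones, with 75.3% of the difference undone. Mt2 measured 33.98 and 47.7 CPM uninjured, 346 and 741 in the PT D1 libraries, then 37.6 and 96.4 in those of PT D7, a 7.99-fold fall that brought the range of PT D7 over that of uninjured. For Mt1 the 95% interval of PT D7 against uninjured ran from -0.01 to 1.38 on the log2 scale and for Mt2 from -0.43 to 1.85, so the values do not show that the genes differ in their return. Both lost the call without PT D7 library 1 (edgeR adjusted p = 0.0744 for each). The promoters are shown with the core of the metal response element, TGCNCNC on either strand, in capitals.

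Mt2, chr8:94898996-94899275, plus strand: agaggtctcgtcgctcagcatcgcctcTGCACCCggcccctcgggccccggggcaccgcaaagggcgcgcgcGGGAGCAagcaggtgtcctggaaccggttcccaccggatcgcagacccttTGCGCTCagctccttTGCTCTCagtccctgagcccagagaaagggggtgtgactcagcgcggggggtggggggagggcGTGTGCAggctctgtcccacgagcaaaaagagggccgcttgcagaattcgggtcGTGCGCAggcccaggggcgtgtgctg

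Mt1, chr8:94905467-94905746, plus strand: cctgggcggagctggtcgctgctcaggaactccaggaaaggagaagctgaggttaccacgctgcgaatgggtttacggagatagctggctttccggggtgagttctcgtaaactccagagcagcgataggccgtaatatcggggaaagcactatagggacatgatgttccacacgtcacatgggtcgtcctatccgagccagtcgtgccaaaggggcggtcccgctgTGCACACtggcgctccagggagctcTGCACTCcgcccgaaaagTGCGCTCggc

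Mt2 held 6 matches and Mt1 3. The motif is short, and 51.0% of all windows held at least 1 match, but 0.225% held as many as Mt2 and 7.10% as many as Mt1. None of the capitals in the promoters of Mt2, Mt1, Cxcl10, Cxcl2 or Socs3 overlapped a match to TGANTCA (AP-1), ACANNNTGT (glucocorticoid receptor) or another of these motifs.

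Genes that glucocorticoids induce fell, several of them past the uninjured level. Of 12 tested members of this list, 9 fell from PT D1 to PT D7, against 2.1% of all genes, and none rose. Its median log2 distance from uninjured was 1.07 at PT D1 but -0.96 by PT D7, while the median over all genes was -0.01 at PT D7, and 10 of the 12 members lay below uninjured. Ddit4, an inhibitor of the growth kinase mTORC1 (GRCm39 chr10:59785491-59788492), measured 116 and 112 CPM in uninjured libraries, 246 and 238 in the PT D1 libraries, then 12.5 and 18.5 in those of PT D7. Its fall was 15.1-fold (log2 -3.92 ± 0.36 SE, edgeR adjusted p = 0.000432), and it ended 7.13-fold below uninjured (log2 -2.83 ± 0.38 SE, edgeR adjusted p = 0.0114). It was the only gene called in all 3 comparisons, and its PT D7 level rests on few UMIs, given by cluster below. Fkbp5, a co-chaperone of the glucocorticoid receptor, measured 142 and 174 CPM uninjured, 264 and 252.5 in the PT D1 libraries, then 58.5 and 44.5 in those of PT D7. It fell 5.01-fold between the PT time points (edgeR adjusted p = 0.00205), and its log2 distance from uninjured was -1.62 ± 0.31 (SE, edgeR adjusted p = 0.089, and 0.0111 with the block). Tsc22d3, which mediates anti-inflammatory effects of glucocorticoids, measured 70.8 and 102 CPM uninjured, 125 and 94.7 in the PT D1 libraries, then 12.5 and 40.8 in those of PT D7. Per1, a clock gene, measured 31.2 and 37.4 CPM uninjured, 82.0 and 63.1 in the PT D1 libraries, then 12.5 and 18.5 in those of PT D7. Klf9, Dusp1, Cdkn1a and Il1r2 fell into the uninjured range, and Klf9 measured 19.8 and 14.5 CPM uninjured, 176 and 129 in the PT D1 libraries, then 25.1 and 7.42 in those of PT D7. Several of these genes also answer to stress or inflammatory signals. The count was 10 with the block, 8 without cluster 4 cells, 5 without PT D7 library 1 and 8 without PT D7 library 2.

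Other genes that fell past uninjured included regulators outside that list. Cebpb, a transcription factor of inflammatory genes, measured 122 and 99.6 CPM uninjured, 276 and 304 in the PT D1 libraries, then 54.3 and 29.7 in those of PT D7. Rnf169, a ubiquitin reader of DNA damage sites, measured 82.1 and 72.6 CPM uninjured, 334 and 197 in the PT D1 libraries, then 25.1 and 18.5 in those of PT D7. Their 95% intervals against uninjured, from -2.17 to -0.63 and from -2.78 to -0.85 on the log2 scale, lay below 0, but the edgeR adjusted p of 0.293 and 0.256 did not pass. Tmem154 had 47 UMIs at PT D1 but 0 by PT D7, at least a 10.8-fold fall on the same limit. Among immediate early and AP-1 genes 5 of 16 (31.2%) fell, against 2.1% of all genes, and none rose. The count was 2 without PT D7 library 1 and 9 with the block, and the median log2 distance of the list from uninjured was 0.87 at PT D1 but -0.09 by PT D7. Ier3, of that list, measured 31.2 and 60.2 CPM uninjured, 440.5 and 486 in the PT D1 libraries, then 50.1 and 55.6 in those of PT D7, back in range. Klf4 measured 65.1 and 120 CPM uninjured, 152 and 177 in the PT D1 libraries, then 25.1 and 37.1 in those of PT D7.

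**Figure D3:**
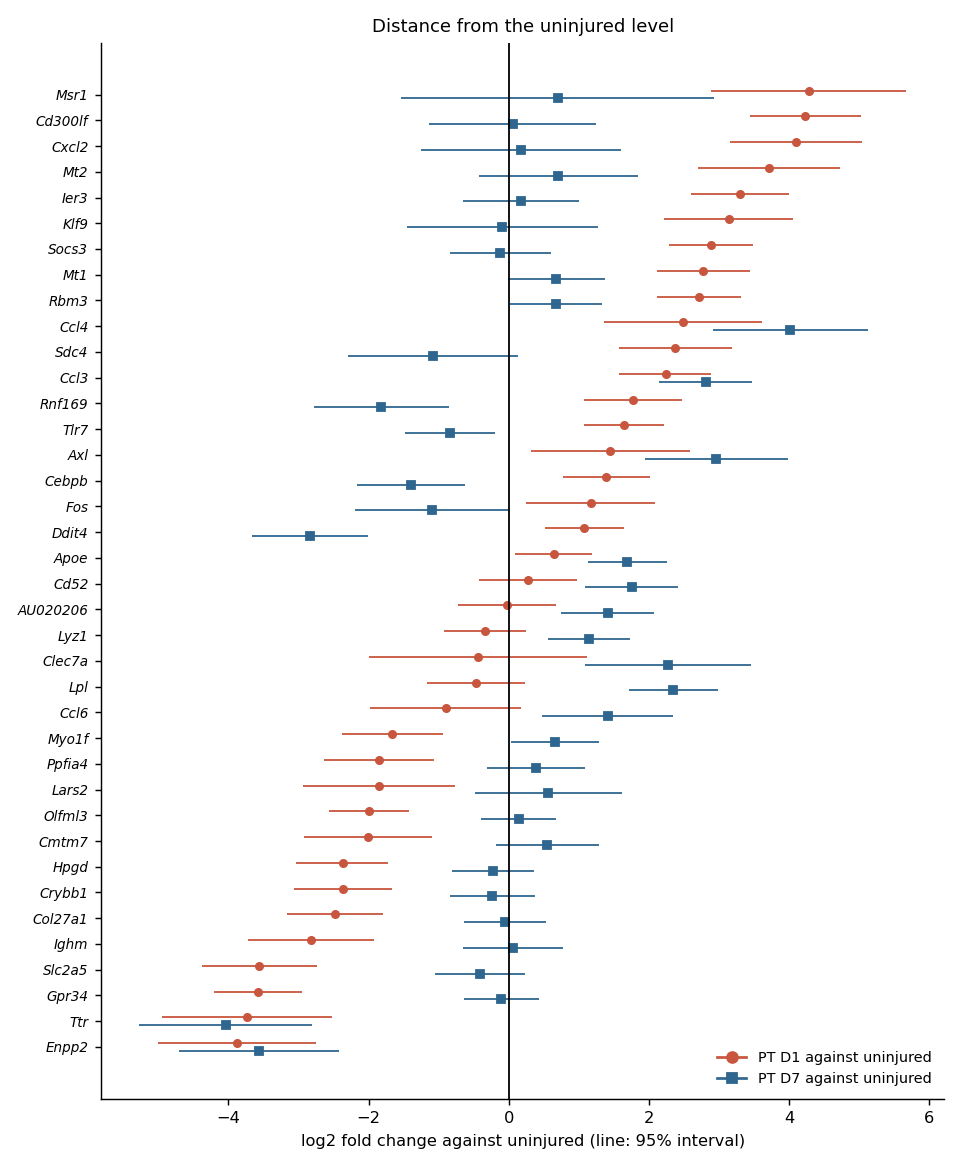
Log2 fold changes against uninjured with 95% intervals from edgeR are drawn for 38 named genes, red for PT D1 and blue for PT D7, ordered by the PT D1 value. Many blue intervals cross 0. Among those below 0 are the intervals of Ddit4, Ttr and Enpp2, and of Rnf169 and Cebpb, which did not pass the test. Those of Lpl, Apoe, Axl, Ccl3 and Ccl4 lie above 0.

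The genes that stood above uninjured at PT D7 included 3 of the disease-associated state, Lpl, Apoe and Axl. Of 21 tested in this list, 5 (23.8%) rose from PT D1 to PT D7, against 1.69% of all genes, and none fell. The study named Apoe, Axl, Clec7a and Cd52 for its cluster 4 in these same cells. The list was also chosen with earlier results known, so its direction is no independent evidence. All 21 lay above uninjured at PT D7, where 49.3% of all genes did, by a median of 1.15 on the log2 scale, against 13 of 21 and a median of 0.43 at PT D1. Lpl, lipoprotein lipase (GRCm39 chr8:69284603-69360100), measured 65.1 and 91.3 CPM uninjured, 60.8 and 53.4 in the PT D1 libraries, then 459 and 349 in those of PT D7. It rose 7.05-fold since PT D1 (log2 2.82 ± 0.30 SE, edgeR adjusted p = 0.000948) and stood 5.09-fold above uninjured (log2 2.35 ± 0.29 SE, edgeR adjusted p = 0.00869). Apoe, the lipid carrier apolipoprotein E (chr7:19430034-19434947), measured 1784 and 1980 CPM uninjured, 3050 and 2812 in the PT D1 libraries, then 5634 and 6552 in those of PT D7, so its libraries stepped up without overlap. The step from PT D1 to PT D7 was 2.08-fold (log2 1.06 ± 0.25 SE, edgeR adjusted p = 0.0418), and PT D7 was 3.24-fold above uninjured (edgeR adjusted p = 0.022). Axl, a receptor for dying cells, measured 11.3 and 16.6 CPM uninjured, 21.3 and 55.8 in the PT D1 libraries, then 117 and 111 in those of PT D7. It was 7.81-fold above uninjured (edgeR adjusted p = 0.029), and its rise since PT D1 had an edgeR adjusted p of 0.0678, or 0.00461 without PT D1 library 2 and 0.00802 with the block, and without cluster 4 cells its log2 change turned to -0.45 (0.824). Clec7a, the beta-glucan receptor dectin-1, measured 8.50 and 16.6 CPM uninjured, 12.2 and 7.28 in the PT D1 libraries, then 50.1 and 77.9 in those of PT D7. Cd52 measured 68.0 and 95.5 CPM uninjured, 119 and 82.6 in the PT D1 libraries, then 246 and 311.5 in those of PT D7. Ccl6 also rose, and Cd63, Fth1 and Lgals3 gave changes of -0.92, -0.70 and -1.10 on the log2 scale that did not pass the test. Apoe passed the test in 10 of 20 alternatives and lost its call without any single library other than PT D1 library 1, with edgeR adjusted p from 0.0879 to 0.142. Clec7a lost it without PT D1 library 2 or either PT D7 library (edgeR adjusted p = 0.0696, 0.105 and 0.303). For the list, 11 genes rose and 2 fell with the block, 2 rose without either PT D7 library, and 1 rose and 1 fell without cluster 4 cells.

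Against uninjured, 8 genes (0.165%) differed at PT D7. The 5 higher ones (0.103%) were Lpl, Apoe, Axl, Ccl3 and Ccl4, and the 3 lower ones (0.0619%) Ddit4, Ttr and Enpp2. At an unadjusted p under 0.05 there were 354 genes, and with the block 43 passed. Leaving out uninjured library 1 left 0 calls, with Ttr, Ccl3, Ccl4 and Ddit4 at an edgeR adjusted p of 0.116, and leaving out uninjured library 2 left Ttr alone. DESeq2 called all 8 as well. Without cells holding 3 or more NSPC marker genes only 2 passed, the lower genes Ttr and Enpp2. Apoe, Lpl, Axl, Ccl3 and Ccl4 then gave log2 distances of 1.03, 1.68, 2.23, 2.27 and 3.32 (edgeR adjusted p from 0.399 to 0.477). Ddit4 gave -3.18 in that fit (edgeR adjusted p = 0.0986). The marker genes were counted without equalizing depth, so cells with more UMIs were more likely to be left out. In PT D7 library 1 the 16 cells of cluster 4 held 108075 UMIs, and the 18 cells of cluster 0 held 62454. The lost calls therefore cannot be assigned to NSPC RNA. Ttr and Enpp2 are abundant in the choroid plexus. Enpp2 measured 609 and 438 CPM uninjured, 39.5 and 31.6 in the PT D1 libraries, then 79.4 and 11.1 in those of PT D7, and Ttr 10153 and 4050, 605 and 461, and 664 and 204. They fell between uninjured and PT D1, and their log2 changes from PT D1 to PT D7 were -0.30 and 0.32 in the order Ttr and Enpp2, neither past the test. Both are among the 10 choroid plexus markers whose sums are given above. Ttr alone made up most of the uninjured sums, with 9840 and 4170 as CPM of all UMIs. Kl, a further marker of that type, had 28 and 12 UMIs in the uninjured libraries but 0 in every PT library. Folr1 had 6 and 3 uninjured UMIs and Clic6 had 5 and 11, and neither exceeded 2 UMIs in any PT library. The part of choroid plexus RNA was not tested. Other genes of the 276 that stayed far from uninjured had edgeR adjusted p over 0.05 at PT D7. Gpr84 and Lilr4b, named after their values were seen, had undone 33.8% and 39.1% of their rise.

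Within PT D7, the genes above uninjured were highest in the cells of cluster 4. At PT D7, 16 of 54 cells in library 1 (29.6%, exact Clopper-Pearson 95% interval 18.0 to 43.6) and 13 of 60 in library 2 (21.7%, 12.1 to 34.2) belonged to cluster 4, against 1 of 71 and 5 of 84 uninjured cells and 2 of 71 and 0 of 76 at PT D1 (the exact interval of 0 of 76 reaches 4.74%). An exact permutation test of 2 libraries against 2 cannot go below p = 0.33, so no test of shares was made, and the intervals cover counting error only. Clusters had been drawn by the authors from these genes, so the levels within them are a description. As CPM of all UMIs of the cells, Apoe measured 10210 and 13780 in cluster 4 of the PT D7 libraries. Cells of cluster 4 were also high in Apoe in the other conditions, with 6538 in the 5 cells of uninjured library 2, 29790 in the 1 cell of uninjured library 1 and 39910 in the 2 cells of PT D1 library 1. In cluster 0 (named homeostatic) it measured 1281 and 3134, against 1306 and 1358 in cluster 0 of the uninjured libraries. Lpl measured 814 and 684 CPM in cluster 4 and 96.1 and 57.0 in cluster 0 at PT D7, against 64.4 and 67.5 in cluster 0 uninjured. In cluster 2 it measured 129 and 298 CPM at PT D7, against 63.6 in uninjured library 1 and 0 UMIs in the 6 cells of uninjured library 2. The rise of Lpl since PT D1 still passed the test without cluster 4 cells (log2 1.57, edgeR adjusted p = 0.0297). Of the Ccl4 UMIs in cluster 4 at PT D7, 115 lay in 5 of 16 cells of library 1 and 67 in 3 of 13 cells of library 2. In the 5 cluster 4 cells of uninjured library 2, Ccl3 and Ccl4 measured 19.8 and 39.5 CPM, against 70.2 and 24.3 in its cluster 0. Without cluster 4 cells no gene passed the test as higher at PT D7 than uninjured, and Apoe, Lpl, Axl, Ccl3 and Ccl4 gave log2 distances of 0.66, 1.36, 2.30, 0.95 and 1.14. The fit without these cells compares fewer cells, and the disease-associated list then had a median of -0.17 for PT D7 against PT D1.

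At PT D7 Ddit4 measured 16.01 and 24.4 CPM in cluster 0, 16.1 and 25.9 in cluster 2 (named unknown) and 0 in cluster 4 of both libraries. These values rest on 1 and 3 UMIs in cluster 0 and on 2 and 2 UMIs in cluster 2. The uninjured cells of cluster 0 measured 125 and 121 CPM and those of cluster 2 measured 76.3 and 110. Without cluster 4 cells its log2 distance from uninjured was -2.22 (edgeR adjusted p = 0.173), and its fall since PT D1 passed the test in all 19 alternatives in which it was tested. Cx3cr1 measured 2354 and 1970 CPM in cluster 0 at PT D7 against 2358 and 2367 uninjured, but 804 and 867 in cluster 2, against 1374 and 1704 uninjured, and 1166 and 972 in cluster 4, against 1771 (1 cell) and 1560 (5 cells) uninjured. The Cx3cr1 level at PT D7 was lower also within cluster 2. It was lower in cluster 4 too, where 1 uninjured value rests on 11 UMIs of 1 cell. P2ry12 in cluster 2 measured 1085 and 816 CPM against 1183 and 1182, the last from 43 UMIs in 6 cells. The levels by cluster are not TMM-scaled, and the TMM factors were 0.869 and 0.983 at PT D7 against 1.05 and 1.12 uninjured. P2ry12 values this close therefore show no direction. Tmem119 in cluster 2 overlapped, at 691 and 388 against 509 and 577, as did Gpr34, at 538 and 324 against 534 and 357. In cluster 4 Tmem119 measured 268 and 150 against 322 and 711, Gpr34 measured 509 and 577 against 161 and 415, and P2ry12 overlapped. The first uninjured value of each rests on 1 cell, with 2 UMIs of Tmem119 and 1 of Gpr34. Cluster 4 therefore shows no direction for these genes. The part of cluster shares was not tested. Cluster 0 made up 33.3% and 53.3% of the PT D7 microglia, 0% and 1.32% at PT D1 and 76.1% and 83.3% of uninjured microglia. Cluster 1 (named activated) held 90.1% and 52.6% at PT D1 and no cell at PT D7 or uninjured, which allows up to 5.56% and 5.00% in the PT D7 libraries.

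**Figure D4:**
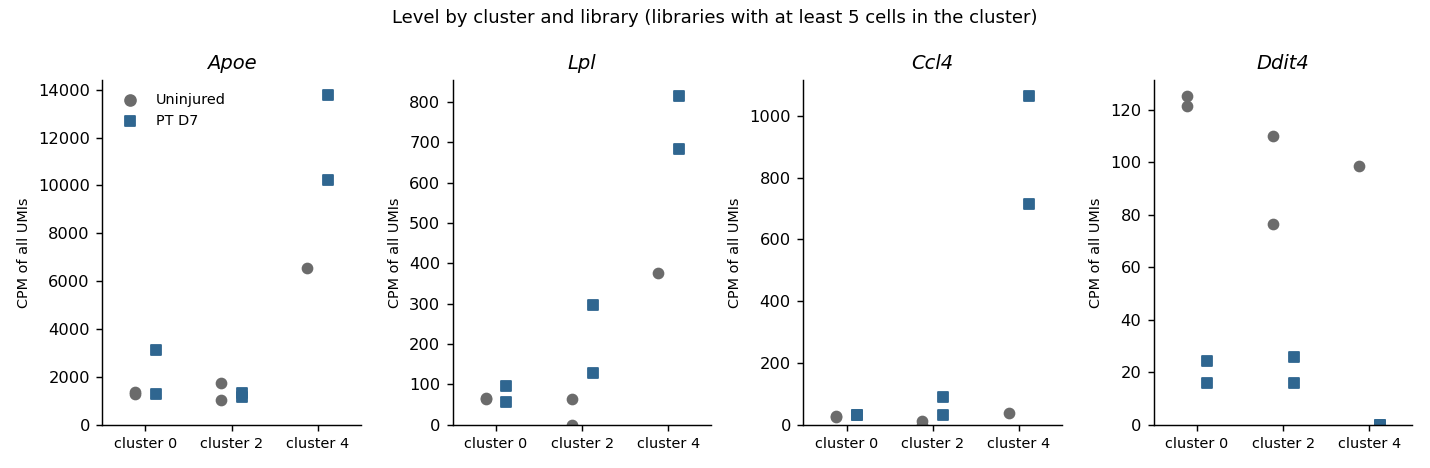
Levels of 4 genes in CPM of all UMIs are drawn by cluster for uninjured (grey circles) and PT D7 (blue squares) libraries with at least 5 cells in the cluster, on linear axes from 0. Apoe, Lpl and Ccl4 are highest in cluster 4 of PT D7, and Ddit4 is lower at PT D7 in clusters 0 and 2.

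Among the remaining lists, 2 of 22 tested chaperones (9.09%) rose, against 1.69% of all genes, and none fell. With the block 6 rose and 2 fell, and without cluster 4 cells 1 rose. Sdf2l1, a cofactor of chaperones in the endoplasmic reticulum (ER), had 2 UMIs at PT D1 but 31 by PT D7, a ratio of 22.6 with a counting interval from 5.74 to 195. Pdia6, an ER protein disulfide isomerase, measured 167 and 156 CPM uninjured, 88.1 and 68.0 in the PT D1 libraries, then 180 and 189 in those of PT D7, a 2.37-fold rise (edgeR adjusted p = 0.0342, and 0.105 without PT D1 library 2), which passed in 9 of 20 alternatives. The promoter of Pdia6 is shown because it holds the consensus of the ER stress element, in capitals, which 39 of all 32851 windows (0.119%) hold on either strand. Of the 4658 windows of genes tested 9 held it (0.193%). Among the 87 windows of genes that rose 1 did, that of Pdia6, and 0 of the 116 of genes that fell.

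Pdia6, chr12:17316340-17316619, plus strand: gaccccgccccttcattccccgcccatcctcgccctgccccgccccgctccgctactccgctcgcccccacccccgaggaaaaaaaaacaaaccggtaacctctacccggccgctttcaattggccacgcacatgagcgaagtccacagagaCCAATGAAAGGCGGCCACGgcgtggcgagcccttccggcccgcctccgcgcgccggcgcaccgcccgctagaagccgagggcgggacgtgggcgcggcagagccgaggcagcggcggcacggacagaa

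The interferon and MHC class I list lay at a median of 1.08 above uninjured at PT D7 and of 0.37 at PT D1 on the log2 scale, and 11 of its 14 tested members were above uninjured at PT D7, as were 49.3% of all genes. That PT D7 median was 0.55 without cluster 4 cells. Of 10 complement genes 2 fell (20.0%), against 2.1% of all genes, the anaphylatoxin receptors C5ar1 and C3ar1. With the block 2 fell and 1 rose. The median log2 change of the list was 0.01, and 0.07 and 0.06 without PT D7 library 1 and 2. Of 12 tested purinergic and ion channel genes 3 rose, against 1.69% of all genes, among them P2ry12 and P2ry13 of the homeostatic list. Of 7 tested genes of cholesterol and lipid handling 2 rose (28.6%), against 1.69% of all genes. They were Lpl and Apoe, which are already counted in the disease-associated list. The lipid handling list had 29 members, of which 22 were not tested. Its median log2 change from PT D1 to PT D7 was 0.13, and 0.40 without PT D7 library 1. For the purinergic list these medians were 0.13 and 0.11. Of 18 TAM receptor and phagocytosis genes 2 fell (11.1%), against 2.1% of all genes, and with the block 4 rose and 3 fell. In 4 further lists 1 member was called, a share near the 3.8% of all genes that says nothing about the lists: 37 lysosomal genes (2.7%), 25 of the actin cytoskeleton (4.0%), 17 of glycolysis (5.88%) and 14 of the cell cycle (7.14%). The 12 TGF-beta and SMAD genes, 6 MHC class II genes, 17 antioxidant and iron genes, 13 mitochondrial transcripts, 71 cytosolic ribosomal proteins and 71 nuclear oxidative phosphorylation genes gave no call between PT D7 and PT D1 in edgeR, but with the block 3 MHC class II and 2 antioxidant and iron genes fell. For the MHC class II genes the medians were 1.20 at PT D1 but 0.20 by PT D7, and H2-Aa measured 238 CPM in PT D1 library 2 against 27.3 in library 1. The median change of that list from PT D1 to PT D7 was -1.12 on the log2 scale and turned to 0.24 without PT D1 library 2. Fth1, the heavy chain of the iron store ferritin, measured 824 and 843 CPM uninjured, 2060 and 1943 in the PT D1 libraries, then 1023 and 1439 in those of PT D7, a fall that did not pass the test (log2 -0.70 ± 0.26 SE, edgeR adjusted p = 0.165). Lyz1 rose from 188 and 221 CPM at PT D1 to 514 and 638 at PT D7, against 215 and 303 uninjured, but its near-identical copy Lyz2 could share its reads.

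**Figure D5:**
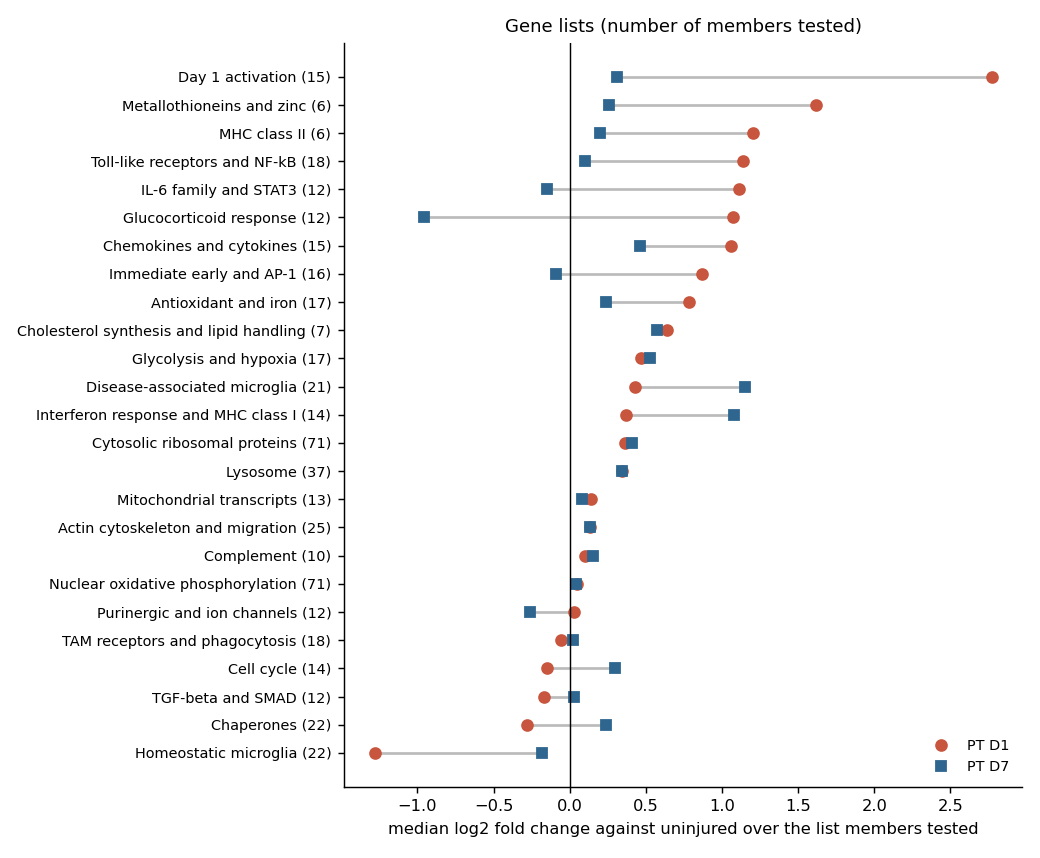
The median log2 fold change against uninjured of each list is drawn for PT D1 (red circles) and PT D7 (blue squares), with the number of members tested in brackets. Most lists lie closer to 0 at PT D7, while the glucocorticoid list crossed to the lower side and the disease-associated and interferon lists moved further up.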

How the data were processed

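Microglia were sorted by the authors into plates and sequenced by mCEL-Seq2. Per the submitters' processing notes, bcl2fastq 2.17.1.14 and GRCm39 were used, and no aligner, counter or gene model is named there. The authors deposited UMI counts per gene and cell, not normalized, after keeping cells with over 1000 UMIs, within 3 median absolute deviations and with at most 25% mitochondrial reads. Cell class and cluster are the authors' deposited annotation, and 15 further columns of their cell table were not used. Doublets were not called again here.

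The deposited counts were summed per library. edgeR 4.0.16 (R 4.3.3) fitted the 3 conditions together by quasi-likelihood, with TMM scaling and filterByExpr, and p-values were adjusted by Benjamini and Hochberg over 4846 genes, with calls at 0.05. Intervals are at 95%. Genes with at most 3 UMIs in a condition are given as ratios of summed UMIs with counting intervals. DESeq2 1.42.0, other scalings and filters, cells thinned to 1000 UMIs and fits without libraries or clusters were run as alternatives. Library numbers come from the labels and, for PT D7, from the digit that ends each cell name. Deviations of same-numbered libraries correlated in every pair of conditions (r = 0.22, 0.193 and 0.262), so fits with the number as a block are given. Named genes were the 12 largest changes in each direction among called genes that averaged 50 CPM or more with no overlap of PT D1 and PT D7 libraries, the 5 of smallest p per position class, those called at PT D7 against uninjured, the called members of each list (the 2 most abundant where none was called) and the markers. Other list members were named after their values were seen. Promoter windows run from 250 bases before to 50 after RefSeq starts (GRCm38.p6 table) and are printed to 30 after. The members and lists were chosen with earlier results of these data known. Gene coordinates are from GENCODE for GRCm39, matched by symbol. Some genes are not reported here.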

Additional observations from a re-analysis of the deposited data

Results flagged for a closer look

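The difference from uninjured microglia was not the same at both times: it differed between PT D7 and PT D1 in 184 genes, which is the comparison of PT D7 with PT D1 itself, in edgeR's quasi-likelihood test. Ddit4 stood out because it lay on opposite sides of the uninjured level, at 1.08 on the log2 scale at PT D1 (edgeR adjusted p = 0.0333) and at -2.83 at PT D7 (edgeR adjusted p = 0.0114). Groups of 2 libraries are too small for a check of single outlying libraries.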

How the results depend on the processing

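The count of genes called between PT D7 and PT D1 (184) was 88 with DESeq2, 422 with no filter, 462 with the replicate block, 94 with only these 2 conditions, 44 in cells thinned to 1000 UMIs and 281 without cluster 3 cells, and ranged from 46 to 418 when single libraries were left out. For PT D1 against uninjured (276) it was 106, 541 and 639 under the first 3 of these, 62 when thinned, 153 without cells holding 3 or more NSPC marker genes, and 45 to 538 without single libraries. For PT D7 against uninjured (8) it was 35 with no filter, 4 with at least 10 UMIs in every library, 43 with the block, 1 when thinned, 2 without the cells with NSPC markers, 16, 19 and 2 without clusters 2, 3 and 4, and 0 to 38 without single libraries. Genes back in range (80) numbered 38 with DESeq2, 151 with no filter, 49 with at least 10 UMIs, 177 with the block, 20 when thinned and 6 to 231 without single libraries. Genes past uninjured (72) numbered 32, 41, 123, 17 and 29 to 127 under DESeq2, the minimum of 10 UMIs, the block, thinning and single libraries left out. Without cluster 4 cells, the called genes Apoe, Cd52 and Lyz1 turned to log2 changes of -0.11, -0.34 and -0.35 since PT D1, and Axl, Ccl3 and Ccl4, not called, to -0.45, -1.27 and -1.42. The causes were not tested, except that thinning and left-out libraries hold fewer UMIs or samples. Of 764 values of 40 named genes under the alternatives, 698 kept their direction and side of the threshold. Where 1 library was left, it was assumed to vary like the others. Depth, lowest in the PT D7 libraries, limits genes of few UMIs, whose changes may not be detectable. Low PT D7 levels, as for Ddit4, Cd300lf, Cxcl2 and Per1, rest on few UMIs, so the size of these falls is uncertain.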
